A study of Mus musculus with 34 samples.

Results

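Nr1d1, Nr1d2, Bhlhe40, Bhlhe41, Dbp, Tef, Hlf and Nfil3 are circadian genes whose protein products carry the core clock's rhythm to its target genes and feed back on it. These 8 genes, of 21887 annotated protein-coding genes, were named as a group, and a peak was counted for a gene when that gene's body was the nearest protein-coding gene body to the peak centre and lay within 50 kb. By this rule 66 of the 174035 peaks in 10 ChIP-seq peak lists belonged to the group. They lay at 34 separate places in the genome.

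The peaks came from Beta-TC6 cells, a mouse insulinoma line used as a model of the pancreatic β cell. ChIP-seq measures where a protein sits on DNA by sequencing the fragments that an antibody against it pulls down. All cells had been synchronised with 10 µM forskolin for 1 h. The p65 subunit of NF-κB and the β-cell homeodomain factor PDX1 were each profiled in wild-type cells and in cells labelled Bmal1-/-, a knockout of the gene for the clock activator BMAL1, as controls and with the cytokine IL-1β, 3 samples for each of these 8 groups. SIN3A, a corepressor that assembles histone deacetylases, was profiled in wild-type cells that received a control siRNA or a Pdx1 siRNA, 2 samples each. Another 6 samples were inputs, DNA sequenced without an antibody. How much IL-1β was given and for how long, and whether the knockout line is 1 clone, is not given in the sources used here. Peak lists hold no expression, so neither the knockout nor the Pdx1 siRNA could be checked.

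Each group has a single deposited list without values for its replicates, so no spread between replicates can be given and no difference between conditions was tested. The level of a peak is the authors' normalised tag count, in tags per 10 M sequenced tags, and the fold over input is theirs too. Where a peak is said to lie in the top part of a list, it is ranked by tag count. Depth was 53.5 to 63.9 M tags for p65 and PDX1 and 31.0 to 35.0 M tags for SIN3A. The lists differed in length far more than in depth. The authors' approximate IP efficiency, the percent of tags that fell in peaks, differed with the groups too. For p65 it was 0.27% in wild-type and 0.03% in knockout controls, and 5.98% and 2.33% with IL-1β. For PDX1 it was 5.0% and 1.64% in controls and 5.55% and 1.29% with IL-1β, and for SIN3A 3.0% with control and 3.65% with Pdx1 siRNA. Its part in the differences between lists given below was not tested. In wild-type cells p65 had 3157 control peaks and 31389 IL-1β peaks, and in knockout cells it had 173 and 16162. The corresponding PDX1 numbers were 40028 and 38930 in wild-type and 8339 and 8095 in knockout cells. SIN3A had 13109 peaks with control and 14653 with Pdx1 siRNA. The authors' caller set a peak width per list, between 206 and 230 bp except in 3 knockout lists, where it was 478, 472 and 418 bp. For the PDX1 samples with IL-1β the title and the antibody label disagree, since the label gives p65, and here the title decides. Of the peaks in the wild-type IL-1β PDX1 list, 61.8% overlapped a control PDX1 peak and 27.3% an IL-1β p65 peak, and in knockout cells these shares were 60.6% and 43.8%. Wild-type PDX1 lists held peaks at 6 of 7 β-cell marker genes in either condition, where Iapp had none. The knockout lists held peaks at 5 in controls, without Mafa and Iapp, and at 4 with IL-1β, without Ins2 as well.

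In the clock, BMAL1 and CLOCK activate genes through E-boxes, and several products of those genes act back on the loop. Nr1d1 and Nr1d2 encode the nuclear receptors REV-ERBα and REV-ERBβ, which repress Arntl, the gene for BMAL1, at elements shared with the activating ROR receptors. Bhlhe40 and Bhlhe41 encode DEC1 and DEC2, repressors that bind E-boxes themselves. Dbp, Tef and Hlf encode the PAR bZIP activators of D-box elements, and Nfil3 encodes the repressor that occupies those elements in opposite phase.

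The upstream promoter bases of 3 genes are printed, Nr1d2 for its p65 peak and Bhlhe41 and Tef for E-boxes with p65 or SIN3A peaks on or beside them. SIN3A peaks also lay at the start site of Hlf, which is not printed. The printed bases come from RefSeq on GRCm38.p6, the assembly behind mm10, which is the build the submitters name. Windows of 250 bases before to 50 after a start site were available for 7 of the 8 genes, with 2 start sites for Tef. The 250 bases before the start are shown 5′ to 3′ on the gene's strand. Capitals mark the 21 bases around the centre of the wild-type IL-1β p65 peak in Nr1d2, and the E-box CACGTG in the other sequences.
Nr1d2, chr14:18239107-18239356, minus strand: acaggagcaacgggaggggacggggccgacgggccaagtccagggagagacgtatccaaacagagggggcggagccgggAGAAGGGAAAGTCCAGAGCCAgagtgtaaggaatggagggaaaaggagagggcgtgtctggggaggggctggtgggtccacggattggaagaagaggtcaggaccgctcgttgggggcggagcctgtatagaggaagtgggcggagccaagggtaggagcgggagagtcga
Bhlhe41, chr6:145865421-145865670, minus strand: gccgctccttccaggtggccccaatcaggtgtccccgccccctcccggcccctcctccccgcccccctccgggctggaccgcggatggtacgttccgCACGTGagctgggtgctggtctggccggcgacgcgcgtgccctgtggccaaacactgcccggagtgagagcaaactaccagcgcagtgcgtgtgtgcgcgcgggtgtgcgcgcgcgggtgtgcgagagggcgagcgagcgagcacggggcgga
Tef, upstream start, chr15:81802423-81802672, plus strand: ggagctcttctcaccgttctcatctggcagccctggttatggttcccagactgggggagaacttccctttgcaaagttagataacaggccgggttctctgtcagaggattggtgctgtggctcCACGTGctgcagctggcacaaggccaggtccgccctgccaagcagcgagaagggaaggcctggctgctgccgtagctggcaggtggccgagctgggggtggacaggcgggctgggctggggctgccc
Tef, downstream start, chr15:81811164-81811413, plus strand: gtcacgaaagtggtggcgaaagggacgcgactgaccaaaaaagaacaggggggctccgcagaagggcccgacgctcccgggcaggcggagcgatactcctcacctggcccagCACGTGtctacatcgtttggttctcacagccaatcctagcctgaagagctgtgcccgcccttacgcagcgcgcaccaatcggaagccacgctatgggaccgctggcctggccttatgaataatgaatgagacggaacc

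Among the 8 windows of the group, 3 held the E-box CACGTG, against 7.84% of the 21263 windows in the table: Bhlhe41 at 153 bases before the start and Tef at 127 and 138 bases before its upstream and downstream starts. The REV-ERB and ROR element TAGGTCA was found in the Nfil3 window only, and 2.32% of all windows held it. No window of the group held a D-box (TTATGTAA or TTACGTAA, 1.03% of all windows), the NF-κB consensus (1.74%) or a PDX1 sequence (TAATTA or CTAATG, 10.6%). Both strands were searched. The capitals in Nr1d2 contain GGAAAGTCCA, which has 1 mismatch to the NF-κB consensus on the other strand and sits 0 bp from the p65 peak centre. This search with 1 mismatch was added after the peak had been seen, and 23.4% of all windows held such a match. Among the 8 windows of the group 3 did, the others being those of Nr1d1 and the upstream start of Tef, 347 and 98 bp from the nearest p65 peak centre.

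**Figure D1:**
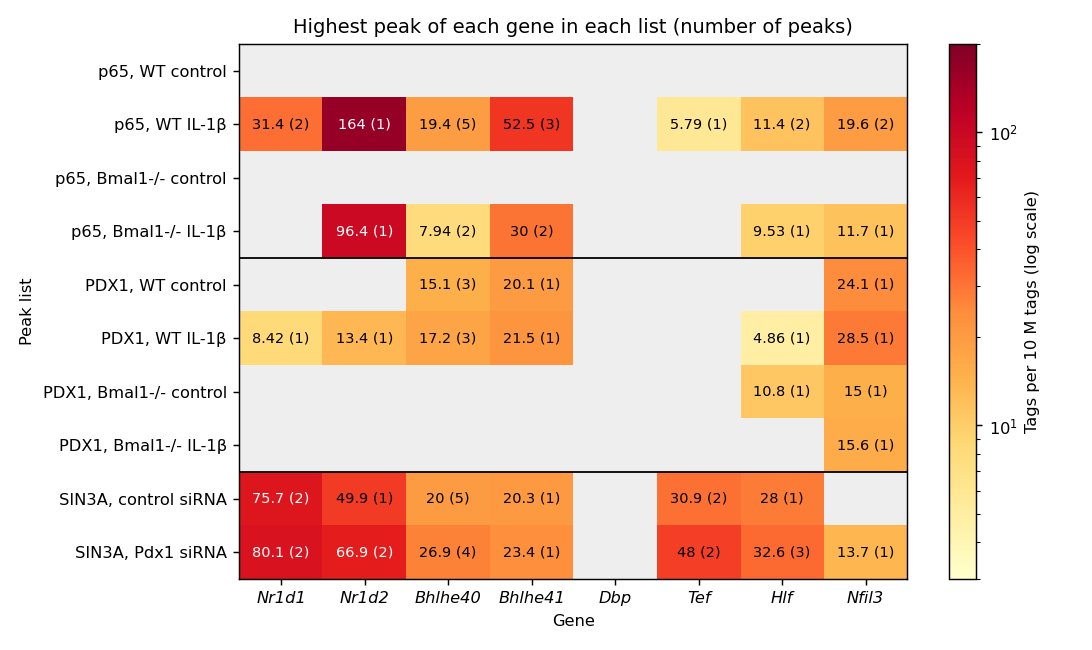
Highest tag count (tags per 10 M tags) of any peak at each of the 8 genes (columns) in each of the 10 lists (rows), with empty cells where the list held no peak. Nr1d2 has the highest p65 values, Nr1d1 the highest SIN3A values and Nfil3 the highest PDX1 values. The column of Dbp is empty, as are the rows of the control p65 lists.

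No p65 peak of the control lists belonged to any of the 8 genes. Those lists reached only 8.99% of all protein-coding genes in wild-type and 0.672% in knockout cells. With IL-1β, 7 of the 8 genes held 16 p65 peaks in wild-type cells, a list in which 45.9% of all genes had a peak, and 5 of the 8 held 7 peaks in knockout cells, where 32.8% did. In wild-type cells these peaks ranged from 4.86 to 163.8 tags per 10 M with a median of 14.4, against a median of 10.3 over the whole list. In knockout cells they ranged from 6.88 to 96.4 with a median of 11.7, against 9.18 over the whole list. Only 1 of the 16 peaks, at Nfil3, lay inside its gene, where 50.7% of all peaks in the list lay inside a protein-coding gene. Of the 7 knockout peaks 1 lay inside a gene, against 51.9%. Among all p65 peaks within 50 kb of a gene, 15911 of 24670 and 8394 of 13132 in these lists lay inside one. The bodies of the 8 genes span 5104 to 54383 bp, and gene length was not adjusted for here or below. Counting the Nfil3 peak, 6 of the 16 lay inside or within 1 kb of the gene body. With a distance limit of 10 kb 8 of the 16 and 4 of the 7 were left, and with noncoding genes as candidates 7 of the 16. Limiting the wild-type list to the length of the knockout list, by score, left 9 peaks at 6 genes. Limiting each IL-1β list to the length of its control list left 2 of the 16 and 1 of the 7. None of the 16 (Wilson 95% interval 0 to 19.4%) overlapped a control peak, against 5.07% of the list, and none of the 7 (0 to 35.4%), against 0.724%. These intervals, as all below, cover counting error only.

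Nr1d2 (chr14:18204056-18239106, minus strand), for REV-ERBβ, held the strongest p65 peak of the group in both genotypes. The peak, chr14:18239164-18239370, was centred 161 bp upstream of the start site in wild-type cells and had 163.8 tags per 10 M, 61.59-fold over input. It ranked 261st of 31389 peaks, in the top 0.832% of the list. The knockout peak, chr14:18239148-18239378, had 96.4 tags per 10 M, 30.86-fold over input, and ranked 95th of 16162, in the top 0.588%. The rank was therefore near the head of either list, although the tag counts of the lists cannot be compared without replicates. PDX1 was called at Nr1d2 only in the wild-type IL-1β list, with 13.4 tags per 10 M at 4897 bp inside the gene. SIN3A lay just downstream of the start, 194 bp inside the gene with control siRNA (49.9 tags per 10 M, top 4.73%) and 315 bp inside with Pdx1 siRNA (66.9, top 2.46%). A further SIN3A peak of 30.9 tags per 10 M was present 787 bp inside the gene with Pdx1 siRNA. The p65 and SIN3A peaks thus flanked the start site without overlapping.

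Nr1d1 (chr11:98767932-98775377, minus strand), for REV-ERBα, held wild-type p65 peaks at 518 bp (31.4 tags per 10 M, top 13.5%) and 8181 bp (26.9, top 16.6%) upstream of the gene. Neither place had a peak in the knockout IL-1β list, whose nearest p65 peak lay 5161 bp from the gene, inside Thra, with 6.36 tags per 10 M. A long noncoding RNA gene, Gm31862, lies nearer to both upstream places than Nr1d1 does. SIN3A stood near the head of its lists at this gene. The intragenic peak, 1471 bp after the start with control and 1402 bp with Pdx1 siRNA, had 75.7 and 80.1 tags per 10 M and ranked 134th and 170th in its lists (top 1.02% and 1.16%). The upstream p65 place at 8181 bp also held SIN3A, with 19.3 and 22.9 tags per 10 M. A PDX1 peak of 8.42 tags per 10 M, in the wild-type IL-1β list only, overlapped the intragenic SIN3A place.

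Bhlhe40 (chr6:108660629-108666925), for DEC1, had the most peaks of the group, 22 at 12 places. Of these 16 lay nearer to a long noncoding RNA gene, 0610040F04Rik or Gm35359. With such genes as candidates Bhlhe40 kept 6 peaks and Hlf, with 9, had the most. The same alternative left 3 of 7 peaks at Nr1d1, 7 of 9 at Bhlhe41, 3 of 5 at Tef and 7 of 8 at Nfil3, and all 6 at Nr1d2. The p65 peaks of Bhlhe40 were spread over both sides of the gene. In wild-type cells with IL-1β the peak 534 bp from the gene body was the highest at 19.4 tags per 10 M, and 4 others, 21681 to 49437 bp away, had 5.42 to 8.59. In knockout cells the near peak had 7.94 and the peak 21715 bp away 6.88 tags per 10 M, and the other 3 places had none. Wild-type controls had PDX1 peaks 2309, 37276 and 48929 bp from the gene, with 9.31, 8.47 and 15.1 tags per 10 M. With IL-1β there were PDX1 peaks at 2215, 37312 and 49219 bp, with 10.8, 8.58 and 17.2. The farthest of these, at chr6:108611597-108611803 in controls and chr6:108611297-108611523 with IL-1β, did not overlap between the conditions, while the other 2 did. With control siRNA, SIN3A had 5 peaks of 7.73 to 20.0 tags per 10 M. With Pdx1 siRNA it had 4 peaks of 10.6 to 26.9, without the peaks at 1155 and 455 bp from the gene that the control list held (20.0 and 17.1 tags per 10 M). Both were near the authors' limit of 4-fold over input, at 4.0-fold and 4.56-fold.

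Bhlhe41 (chr6:145858243-145865420, minus strand), for DEC2, had its strongest p65 peak 7240 bp downstream, with 52.5 tags per 10 M in wild-type cells (14.35-fold over input, top 6.6%) and 30.0 in knockout cells (15.95-fold, top 9.52%). A second downstream place, 11310 bp from the gene, had 17.6 and 14.3 tags per 10 M in the same lists. The promoter peak, 295 bp upstream, had 17.4 tags per 10 M in wild-type cells and was not called in knockout cells. It lay 39 bp from the printed E-box. PDX1 and SIN3A lay side by side between the downstream p65 places and the gene. PDX1, 2609 and 2564 bp downstream in wild-type cells, had 20.1 tags per 10 M in controls and 21.5 with IL-1β, and no peak in knockout cells. SIN3A, 2318 and 2252 bp downstream, had 20.3 tags per 10 M with control and 23.4 with Pdx1 siRNA.

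**Figure D2:**
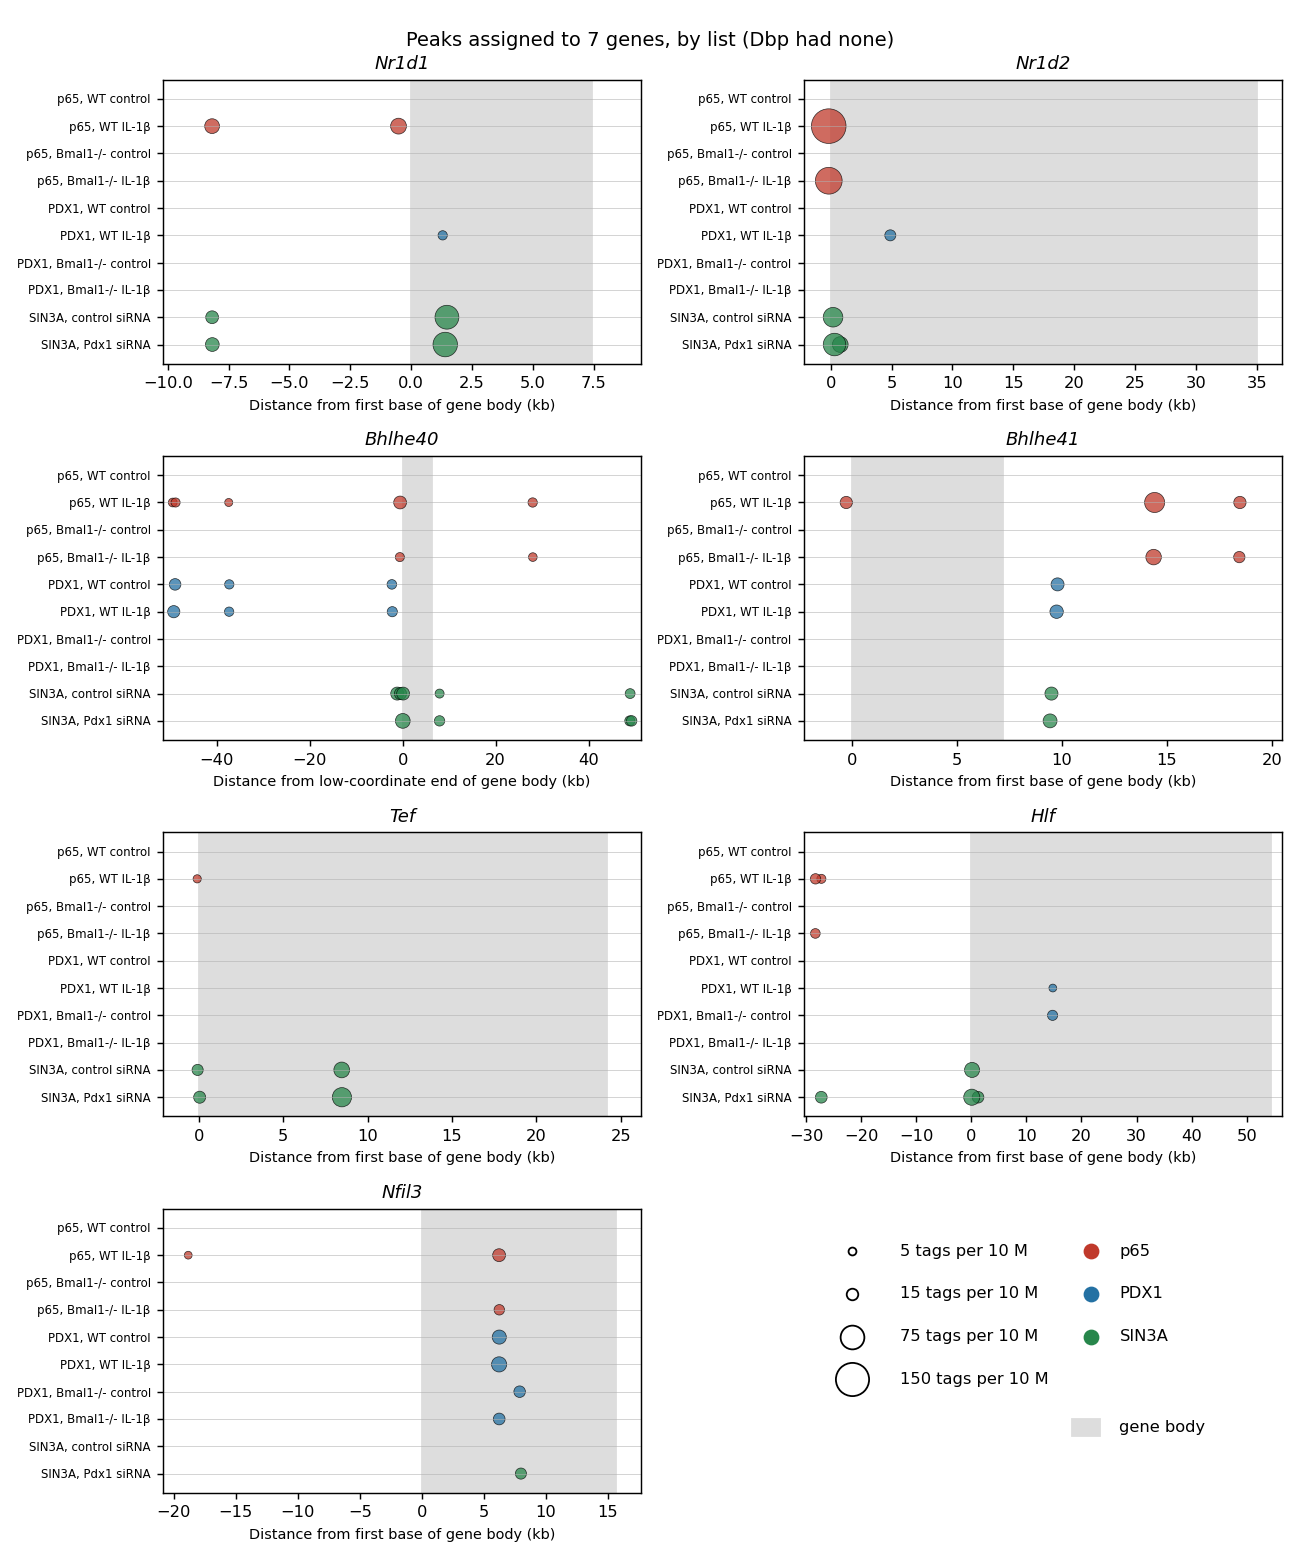
Position of each peak relative to its gene (horizontal axis, distance in kb from the first base of the gene body, or from its low-coordinate end for Bhlhe40, with the gene body shaded) for the genes with peaks, coloured by antibody and sized by tag count. p65 peaks lie mainly outside the gene bodies, SIN3A peaks lie at or near the first base of Nr1d2, Tef and Hlf, and the peaks of Bhlhe40 are the most widely spread.

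Dbp (chr7:45705100-45710203, plus strand), the founding gene of the PAR bZIP family, had no peak in any of the 10 lists under the rule. Its neighbour Sphk2 overlaps its body and received the closest peaks. These were SIN3A peaks of 25.8 and 26.3 tags per 10 M, 4918 and 4930 bp from Dbp and inside Sphk2. The nearest p65 peaks with IL-1β lay 45901 bp away in wild-type cells, with 4.48 tags per 10 M, and 55955 bp away in knockout cells, with 5.83. The nearest PDX1 peak in wild-type controls was 9596 bp away, with 4.99 tags per 10 M, and with IL-1β 27384 bp away, with 20.9.

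Tef (chr15:81802673-81826863, plus strand) carried no PDX1 peak. Its p65 peak, centred 103 bp before the upstream start in wild-type cells with IL-1β, was weak at 5.79 tags per 10 M and 4.35-fold over input, close to the authors' limit of 4-fold, and stood in the lower part of its list (top 75.7%). It covered the E-box printed for that start. A control-siRNA SIN3A peak of 13.8 tags per 10 M covered the same E-box, and the Pdx1-siRNA peak of 16.6 lay 61 bp from it. The downstream start carried the stronger SIN3A peaks, 30.9 tags per 10 M with control siRNA (top 20.8%) and 48.0 with Pdx1 siRNA (top 8.27%), 30 and 26 bp from that start's E-box.

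Hlf (chr11:90336535-90390917, minus strand) had p65 far upstream. In wild-type cells with IL-1β the peaks 28302 and 27237 bp from the gene had 11.4 and 7.85 tags per 10 M, and in knockout cells only the first was called, with 9.53. SIN3A lay at the start site, 124 and 72 bp inside the gene, with 28.0 tags per 10 M with control and 32.6 with Pdx1 siRNA. With Pdx1 siRNA 2 further SIN3A peaks were called, of 15.4 tags per 10 M inside the gene and 15.7 at the p65 place 27237 bp upstream. An intragenic PDX1 peak was called in wild-type cells with IL-1β (4.86 tags per 10 M) and in knockout controls (10.8) at overlapping places, and in neither of the other PDX1 lists.

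Nfil3 (chr13:52967209-52982878, minus strand) held the only one of the 34 places that appeared in 5 lists, and the only one with p65 and PDX1 in knockout cells. This place lay inside the gene, 4392 bp after the start site for the wild-type p65 peak. There p65 had 19.6 tags per 10 M in wild-type and 11.7 in knockout cells with IL-1β. PDX1 had 24.1 in wild-type controls, 28.5 in wild-type cells with IL-1β and 15.6 in knockout cells with IL-1β. These were the highest PDX1 values of the group in wild-type cells, in the top 11.3% and 10.7% of their lists. In knockout controls the PDX1 peak, 15.0 tags per 10 M, was called at another place, chr13:52974754-52975226. SIN3A was called at that second place with Pdx1 siRNA, 13.7 tags per 10 M, and nowhere at Nfil3 with control siRNA. A weak p65 peak of 4.86 tags per 10 M lay 18839 bp upstream in wild-type cells.

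Whether the p65 peaks of wild-type cells were also found in knockout cells was asked by overlap of at least 1 bp. Of the 16 wild-type IL-1β peaks of the group 7 (43.8%, 23.1 to 66.8%) overlapped a knockout peak, against 40.7% of all peaks in the list. All 7 knockout peaks (64.6 to 100%) overlapped a wild-type peak, against 79.1% of all. Both backgrounds lie inside the intervals. With at least 8-fold over input in both lists, 5 of 7 peaks (71.4%) were found in the knockout, against 36.4% of all. No interval was calculated for this share of 7 peaks, so its distance from the background cannot be judged. The peaks found in both genotypes were those at Nr1d2, the near and the 21681 bp peaks of Bhlhe40, the downstream pair of Bhlhe41, the farther Hlf peak and the intragenic Nfil3 peak. Those found in wild-type cells alone were both peaks of Nr1d1, the single peak of Tef, the promoter peak of Bhlhe41 and 5 others at Bhlhe40, Hlf and Nfil3.

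The 7 peaks found in both genotypes and the 9 found in wild-type cells alone did not overlap in their fold over input. The first ranged from 9.74 to 61.59-fold and the second from 4.27 to 7.30-fold. Their tag counts did overlap, 8.59 to 163.8 against 4.86 to 31.4 tags per 10 M. The fold of the Bhlhe40 peak 21681 bp away, 51.68, rests on an input value of 0.5 tags. This split was noticed after the values had been seen. Over the whole wild-type list, 51.5% of the 17883 peaks with at least 8-fold over input overlapped a knockout peak, and 26.5% of the 13506 peaks below 8-fold did. The Nr1d1 peaks were in the strongest of 4 equal parts of the list by tags, where 90.7% of the peaks at or above 8-fold and 73.2% of those below were found in the knockout. They lay on 16 and 17 input tags, the most of the 16 peaks, and whether input coverage had a part in their absence from the knockout list was not tested.

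**Figure D3:**
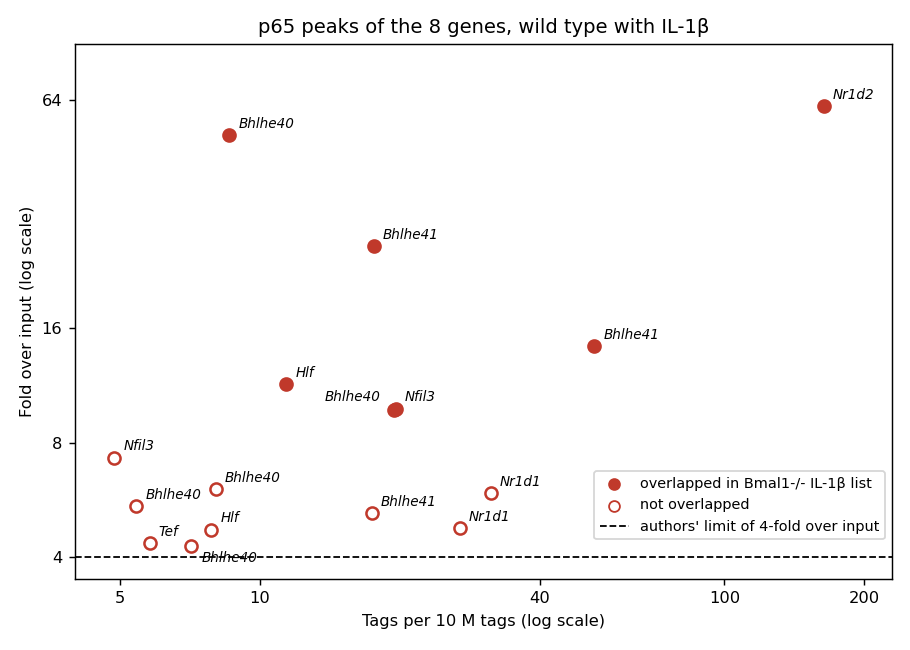
Tag count (tags per 10 M tags, log scale) against fold over input (log scale) of the 16 wild-type IL-1β p65 peaks of the group. Filled points overlapped a knockout IL-1β peak and lie at or above 9.74-fold, open points did not and lie at or below 7.30-fold, and the dashed line is the authors' limit of 4-fold.

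For PDX1, 3 of the 8 genes had a peak in wild-type controls (5 peaks, 8.47 to 24.1 tags per 10 M, with 41.9% of all genes having a peak) and 6 with IL-1β (8 peaks, 4.86 to 28.5, with 41.4%). In knockout cells there were 2 genes in controls (10.8 and 15.0 tags per 10 M, with 16.5% of all genes) and 1 with IL-1β (15.6, with 16.1%). With the wild-type lists limited to the knockout's length, 2 peaks at 2 genes were left in controls and 2 peaks at 2 genes with IL-1β. Of the wild-type control peaks 1 of 5 lay inside its gene (47.3% of all peaks in the list did), and of the IL-1β peaks 4 of 8 (47.7%). The knockout peaks were all inside, 2 of 2 in controls (48.0%) and 1 of 1 with IL-1β (48.4%). Of all wild-type peaks within 50 kb of a gene, 18923 of 27639 in controls and 18569 of 27100 with IL-1β lay inside one. In knockout cells these were 4005 of 5810 and 3918 of 5706. The additional wild-type genes with IL-1β were Nr1d1, Nr1d2 and Hlf, whose peaks were 4.22-fold, 5.05-fold and 7.30-fold over input. With at least 8-fold over input 2 genes were left in that list. Of the 8 IL-1β peaks 4 (50%, 21.5 to 78.5%) overlapped a control peak, against 61.8% of all, and 4 of the 5 control peaks (80%, 37.6 to 96.4%) overlapped an IL-1β peak, against 60.1%. Of the 5 wild-type control peaks none overlapped a knockout control peak (0 to 43.4%, against 19.1% of all), and 1 of the 8 IL-1β peaks, at Nfil3, overlapped a knockout IL-1β peak (12.5%, 2.24 to 47.1%, against 18.7%). In reverse, neither of the 2 knockout control peaks overlapped a wild-type one. Their interval, 0 to 65.8%, lies below the 91.6% of all but rests on 2 peaks. The single knockout IL-1β peak did overlap a wild-type one (20.7 to 100%, against 89.9%). Within knockout cells that peak did not overlap a control peak (0 to 79.3%, against 60.6%), nor did the 2 control peaks overlap it (against 58.8%). Leaving out the IL-1β PDX1 lists because of their antibody label keeps 4 of the 6 genes with any PDX1 peak, without Nr1d1 and Nr1d2, and 7 of the 16 PDX1 peaks.

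SIN3A covered 6 of the 8 genes with control siRNA (12 peaks, 7.73 to 75.7 tags per 10 M, median 19.8) and 7 with Pdx1 siRNA (15 peaks, 10.6 to 80.1, median 22.9). In those lists 47.5% and 50% of all genes had a peak. Of the control-siRNA peaks of the group 10 of 12 (83.3%, 55.2 to 95.3%) overlapped a Pdx1-siRNA peak, against 73.5% of all. In reverse 10 of 15 (66.7%, 41.7 to 84.8%) did, against 65.7%. Of these peaks 5 of 12 and 9 of 15 lay inside their gene, against 81.5% and 81.2% of all peaks. Among all peaks within 50 kb of a gene, 10690 of 12833 and 11900 of 14263 lay inside one. At the 6 genes with peaks in both lists the highest tag count was larger with Pdx1 siRNA. The 9632 peaks found in both lists had a median of 22.9 tags per 10 M with control and 26.6 with Pdx1 siRNA, so the same order held for shared peaks of the whole lists.

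**Figure D4:**
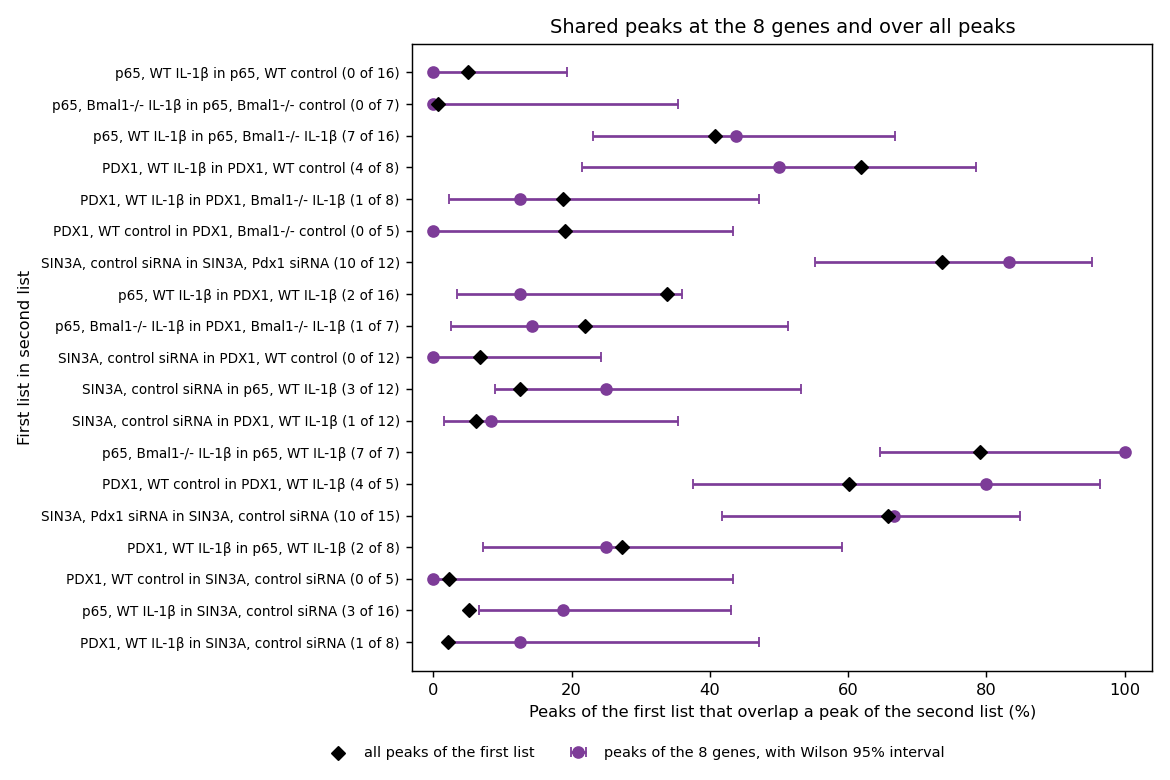
Share of the group's peaks in a first list that overlapped a peak of a second list (percent, points with Wilson 95% intervals that cover counting error only) beside the share over all peaks of the first list. Only comparisons with at least 5 peaks of the group in the first list are drawn. In these the interval holds the share of all peaks in every line but the lowest pair. There SIN3A was found at 18.8% of the p65 (3 of 16) and 12.5% of the PDX1 peaks (1 of 8), against 5.22% and 2.09% of all. In the other direction both intervals hold the share of all, and at least 8-fold over input in both lists left neither overlap. Not drawn is PDX1 of knockout controls in wild-type controls (0 of 2). Its interval, 0 to 65.8%, lies below the 91.6% of all.

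Peaks of more than 1 antibody overlapped at 9 of the 34 places (26.5%), against 18.5% of the 91120 places formed the same way from all peaks. Of the 34 places 9 held p65 alone, 5 PDX1 alone and 11 SIN3A alone, 4 held p65 with SIN3A, 3 p65 with PDX1, 2 PDX1 with SIN3A, and none all 3. In wild-type cells with IL-1β 2 of the 16 p65 peaks overlapped a PDX1 peak (12.5%, 3.5 to 36.0%, against 33.8% of all), at Nfil3 and at the Bhlhe40 place 37398 bp from the gene, and 2 of the 8 PDX1 peaks overlapped a p65 peak (25.0%, 7.15 to 59.1%, against 27.3%). In knockout cells with IL-1β this held for 1 of 7 p65 peaks (14.3%, 2.57 to 51.3%, against 21.9%) and for the single PDX1 peak (20.7 to 100%, against 43.8%). Of the 12 control-siRNA SIN3A peaks 3 (25.0%, 8.89 to 53.2%) overlapped a wild-type IL-1β p65 peak, against 12.5% of all, at Nr1d1, Bhlhe40 and Tef. In reverse 3 of the 16 p65 peaks (18.8%, 6.59 to 43.0%) overlapped a SIN3A peak, against 5.22%. At least 8-fold over input in both lists left 0 of 6 and 0 of 7. None of the 12 SIN3A peaks overlapped a control PDX1 peak (0 to 24.2%, against 6.83%), and none of the 5 control PDX1 peaks a SIN3A peak (0 to 43.4%, against 2.24%). With IL-1β 1 of 12 SIN3A peaks, at Nr1d1, overlapped a PDX1 peak (8.33%, 1.49 to 35.4%, against 6.2%), and 1 of 8 in reverse (12.5%, 2.24 to 47.1%, against 2.09%). The titles of the SIN3A samples name an siRNA and no IL-1β, so these overlaps set lists with different condition labels side by side. At the promoter windows p65 of wild-type cells with IL-1β overlapped 3 of 8, those of Bhlhe41, Nr1d2 and the upstream start of Tef, against 7.71% of all windows. In knockout cells only the Nr1d2 window was overlapped, against 6.43%. No PDX1 list touched a window of the group, nor did a control p65 list. In wild-type cells 2.17% and 1.8% of all windows were touched by control and IL-1β PDX1 and 0.583% by control p65. In knockout cells these shares were 0.325%, 0.428% and 0.08%. SIN3A overlapped 3 of 8 in each list, those of Hlf and both Tef starts, against 24.6% and 24.9%.

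The other clock genes, a list of 18 that holds the activators, the period and cryptochrome genes, the ROR receptors and regulators of protein stability, had p65 peaks with IL-1β at 12 genes in wild-type cells and at 9 in knockout cells. In wild-type and knockout controls 4 and 0 did. Of all protein-coding genes 45.9% and 32.8% had a p65 peak in the wild-type and knockout IL-1β lists. In the control lists 8.99% and 0.672% had one. In either IL-1β p65 list and either SIN3A list no gene of the 18 had a higher peak than the highest of the group, Nr1d2 for p65 and Nr1d1 for SIN3A. For PDX1 the order was the other way, though the highest of 18 genes is set against the highest of 8. Rora, for an activator that competes with the REV-ERB receptors, reached 45.5 tags per 10 M in wild-type controls and 53.8 with IL-1β. It held 22 and 24 PDX1 peaks in these lists, against 5 and 8 for the whole group. These counts were not adjusted for gene length. SIN3A peaks inside Rora lay as far apart as chr9:68653932 and chr9:69289887, while the longest gene of the group, Hlf, spans 54383 bp. Btrc reached 30.4 and 31.3, also above every member. Clock had 24.3 in wild-type controls, against 24.1 for the highest of the group. In knockout cells Arntl, Clock and Rora had 20.9, 21.0 and 20.5 tags per 10 M in controls, and Clock and Rora 16.7 and 18.3 with IL-1β, again above every member. In wild-type p65 controls Arntl, Btrc, Per3 and Rora had peaks of 3.72 to 7.07 tags per 10 M where the group had none.

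Genes whose pattern was most like a member's were found by the Euclidean distance of log2(1 + highest tag count) over the 10 lists, for the 5 members with peaks in at least 5 lists. Nearest to Bhlhe41 were Cdc42bpa (distance 0.323), Acot11 (0.351) and Nhej1 (0.492), and nearest to Bhlhe40 were Caprin1 (0.408), Adnp (0.412) and Rpl26 (0.485). Nearest to Nfil3 were Irx2 (0.505), Sall1 (0.774) and Mpp7 (0.80). The patterns of Nr1d2 and Hlf had no such close neighbours, with Amz2 at 1.12, Katna1 at 1.41 and Slc11a2 at 1.46 for Nr1d2 and Csk at 1.38, Lins1 at 1.48 and Pank3 at 1.75 for Hlf.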

How the data were processed

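The data were 10 deposited peak lists, 1 for each immunoprecipitated group. Per the file headers, HOMER findPeaks (factor style) compared 1 antibody tag collection with 1 input tag collection and kept peaks that passed a false discovery rate of 0.001 and exceeded both input and the surrounding 10 kb by 4-fold or more. Pooling of replicates is not stated there. The signal of a peak is its tag count, given by the authors per 10 M tags as the file headers state. The deposited score and fold over input (a ratio of tags scaled to depth) of each peak are also the authors' values. The score ranked peaks where lists were set to equal length. The submitters' processing notes name the build mm10 and, among other tools, Bowtie2 and HOMER, without role or version.

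Peaks were assigned with Python 3.11.15, numpy 2.4.6 and pandas 2.3.3 to the nearest protein-coding gene body of RefSeq on GRCm38.p6, at most 50 kb from the peak centre. The script was tested on simulated data. All 8 genes were in the gene table and 7 in the promoter table. Overlap needed at least 1 bp, with Wilson 95% intervals that cover counting error only. No test between conditions was made, because the lists hold no value per replicate. The genes, the lists and the rules were chosen with earlier results of these data known. Every member was named. Of the 18 other clock genes those with a peak above every member's were named, and the 3 most similar genes for each member with a peak in at least 5 lists. Alternatives were gene distances of 10 and 100 kb, all annotated genes, lists set to equal length, a fold over input of 8 or more, a reciprocal overlap of 50% and centres within 100 bp.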

Additional observations from a re-analysis of the deposited data

How the results depend on the processing

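Of 217 alternative values 181 stayed, counts within 1.5 times the reported value and shares within its interval, and 36 moved. Where the reported value was 0, a stricter alternative could only give 0 again, and such values are counted among the 181. Within 10 kb the group held 8 p65 peaks in wild-type cells with IL-1β, 4 in knockout cells with IL-1β and 3 PDX1 peaks in wild-type controls, and all 3 of those (100%) overlapped an IL-1β PDX1 peak. With all annotated genes as candidates 7 p65 peaks of wild-type cells with IL-1β, 2 and 5 PDX1 peaks of wild-type controls and IL-1β cells, and 7 control-siRNA SIN3A peaks were left. With at least 8-fold over input 7 p65 peaks of wild-type cells with IL-1β remained, and PDX1 kept 3 peaks in wild-type controls, 3 peaks at 2 genes in wild-type cells with IL-1β, 1 peak at 1 gene in knockout controls and 0 peaks at 0 genes in knockout cells with IL-1β. SIN3A kept 6 control-siRNA peaks. At equal list length 9 p65 peaks were left in wild-type cells with IL-1β, 2 PDX1 peaks in wild-type controls and 2 PDX1 peaks at 2 genes with IL-1β.

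Among the shares, requiring 8-fold over input in both lists gave 71.4% of wild-type p65 peaks in the knockout with IL-1β (5 of 7). It gave 33.3% of wild-type control PDX1 peaks with IL-1β (1 of 3) and 0% of control-siRNA SIN3A peaks at wild-type IL-1β p65 and the reverse. The shares of wild-type IL-1β PDX1 peaks in the knockout (0 of 3) and of knockout p65 peaks at PDX1 (0 of 5) were 0%. Here the single knockout IL-1β PDX1 peak, at Nfil3, was 4.99-fold over input, so the limit removed it. At equal list length 50% of the wild-type IL-1β PDX1 peaks (1 of 2) were found in the knockout. The single overlap of SIN3A with wild-type IL-1β PDX1, at Nr1d1, was 0% in both directions with reciprocal overlap, centres within 100 bp, 8-fold over input and equal list length. Each share rests on at most 16 peaks, so that 1 peak moves it widely, and a place without a peak can still hold signal below the threshold of its list. Leaving out replicates was not run, because the lists give no value per replicate. No paired analysis was possible because each list has 1 value per peak for the whole group.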
